A study of Mus musculus with 8 samples.

Results

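Genes that copy the DNA and divide the cell were followed by RNA-seq in C3H10T1/2, a line of mesenchymal stem cells from mouse embryos of the C3H strain. A list of 48 genes was chosen by gene symbol, from knowledge of their roles, out of the 18605 genes measured. It holds 21 genes of the G1/S transition and of DNA replication and 27 genes of G2 and mitosis, and all 48 were found and had enough counts to be tested. NC cells carried a non-target control, and KD-Nap1l2 cells carried an shRNA against *Nap1l2*, a gene of the nucleosome assembly protein family. Both were harvested before induction, at day 0, and after 7 days of osteogenesis induction (NC-7d and KD-Nap1l2-7d), with 2 libraries in each of the 4 groups. No library came from cells kept 7 days without induction, so effects of induction and of 7 days in culture cannot be told apart. The methods of the study describe shRNAs delivered by lentivirus and a bone-forming medium with dexamethasone, ascorbic acid and a phosphate donor. Whether the 2 libraries of a group came from separate cultures is not given in the sources used here, so the p-values measure only the spread between these libraries.

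Cells prepare to divide in a fixed order. In G1, CDC6 and CDT1 load the ring of MCM2 to MCM7 on replication origins, and cyclin D and cyclin E kinases then free E2F factors, which switch on the genes of DNA synthesis. CDC45 and the GINS complex turn the loaded ring into the working helicase, and PCNA clamps the polymerases to the fork. A later wave, driven by MuvB complexes with B-MYB and FOXM1, supplies cyclins A and B, CDK1, the mitotic kinases, kinetochore proteins and spindle motors. In resting cells the DREAM complex, which holds the same MuvB core with E2F4 and a pocket protein, keeps both sets of genes low. Mesenchymal cells commonly leave the cell cycle as they differentiate. In RNA from whole cultures, fewer cycling cells and less of these mRNAs per cell cannot be told apart.

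The deposited counts summed to between 17420284 and 19427359 per library, and the 48 genes had between 44 and 15031 counts in a library. *Nap1l2* itself had 3 and 3 counts in the NC libraries, 2 and 7 in KD-Nap1l2, 15 and 5 in NC-7d and 7 and 13 in KD-Nap1l2-7d. These counts do not separate the knockdown from its control at either time, and they are too low to decide whether it was present. The paper reports the knockdown in this cell line by western blot and qPCR, without saying whether the sequenced cultures were tested. The 4 libraries concerned are therefore best read as the libraries labelled KD-Nap1l2 and KD-Nap1l2-7d. The 12 mesenchymal markers summed to between 11998 and 29185 CPM (counts scaled to library size) per library, whereas the immune, endothelial and epithelial marker lists, of 6 measured genes each, summed to between 1.89 and 19.96 CPM. The 12 osteoblast markers, *Col1a1* and *Spp1* among them, summed to between 5154 and 8207 CPM. Of these, 9 had enough counts to be tested, and *Alpl*, *Sp7* and *Ibsp* had at most 10 counts in any library.

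The promoters of these genes were read for short motifs of known cell cycle regulators. RefSeq promoter windows (GRCm38.p6) were matched for 38 of the 48 genes, and the 250 bases before each start were searched on both strands for 3 motifs. The CCAAT box, to which NF-Y binds, was searched as CCAAT, and the CHR-like element of MuvB targets as TTTGAA. The E2F motif was searched as TTCCCGC and, as a variant, TTGGCGC. On the other strand the CCAAT box can share bases with this variant. *Mcm7* and *Prc1* have 2 windows, and a gene was counted where either held the motif. The last 150 bases before the start are shown for 3 replication genes with an E2F motif and 3 mitotic genes with a CHR-like element and a CCAAT box, with every motif in capitals.
Cdc6 (chr11:98908001-98908150, plus strand, replication licensing): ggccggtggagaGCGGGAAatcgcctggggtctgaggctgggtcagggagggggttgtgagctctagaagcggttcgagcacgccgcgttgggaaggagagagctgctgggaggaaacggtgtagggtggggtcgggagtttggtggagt
Mcm5 (chr8:75109359-75109508, plus strand, replicative helicase): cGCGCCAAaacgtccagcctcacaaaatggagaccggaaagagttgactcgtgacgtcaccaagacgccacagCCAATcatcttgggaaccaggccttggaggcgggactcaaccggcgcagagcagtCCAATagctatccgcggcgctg
Mcm6 (chr1:128359706-128359855, minus strand, replicative helicase): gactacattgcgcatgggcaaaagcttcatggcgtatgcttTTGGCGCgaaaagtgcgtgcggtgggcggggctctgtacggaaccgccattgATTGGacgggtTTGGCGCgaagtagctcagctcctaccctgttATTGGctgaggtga
Cdc20 (chr4:118437344-118437493, minus strand, activator of the anaphase-promoting complex): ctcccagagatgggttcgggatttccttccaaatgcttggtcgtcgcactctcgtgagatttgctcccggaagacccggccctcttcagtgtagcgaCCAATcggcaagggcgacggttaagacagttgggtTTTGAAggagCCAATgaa
Top2a (chr11:99024190-99024339, minus strand, topoisomerase of mitotic chromosomes): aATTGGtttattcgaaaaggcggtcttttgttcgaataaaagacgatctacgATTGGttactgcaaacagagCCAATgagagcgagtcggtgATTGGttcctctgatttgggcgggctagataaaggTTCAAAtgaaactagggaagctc
Kif11 (chr19:37376232-37376381, plus strand, spindle motor): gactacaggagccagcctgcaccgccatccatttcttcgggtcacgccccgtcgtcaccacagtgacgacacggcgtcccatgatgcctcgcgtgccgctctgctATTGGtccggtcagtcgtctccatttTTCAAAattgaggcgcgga

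A CCAAT box stood before 19 of 22 G2/M genes (86.4%) and 10 of 16 G1/S genes (62.5%), against 33.9% of all 32851 promoter windows. Of the 13 genes that fell on induction of the cells labelled KD-Nap1l2, described later, 12 had a window, and all 12 held a CCAAT box. A CHR-like element was found before 8 of 22 G2/M genes (36.4%), 2 of 16 G1/S genes (12.5%) and 16.0% of all windows. The order was reversed for the E2F motif, present before 5 of 16 G1/S genes (31.3%), 3 of 22 G2/M genes (13.6%) and 5.62% of all windows. In *Kif11* the CHR-like element begins 19 bases and the CCAAT box 45 bases before the start, and in *Cdc20* they begin 18 and 53 bases before it, with a second CCAAT box at 8 bases. These matches describe the letters only, and binding was not measured.

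Per length, in FPKM, the most abundant of these mRNAs was *Ccnd1*, which encodes cyclin D1 and answers to growth factors, with a mean of 175 FPKM over the 8 libraries. *Pcna* followed with 120 FPKM, and *Ube2c*, the ubiquitin-conjugating enzyme of the anaphase-promoting complex, with 74.5 FPKM. *Gins1*, a subunit of the helicase, had the lowest mean, 4.53 FPKM. Between the lowest and the highest library, *Ccne2* varied most, by 3.49-fold, from 11.3 to 39.5 CPM. *Cenpf* (3.36-fold) and *Nusap1* (3.32-fold), both of the mitotic apparatus, came next.

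**Figure D1:**
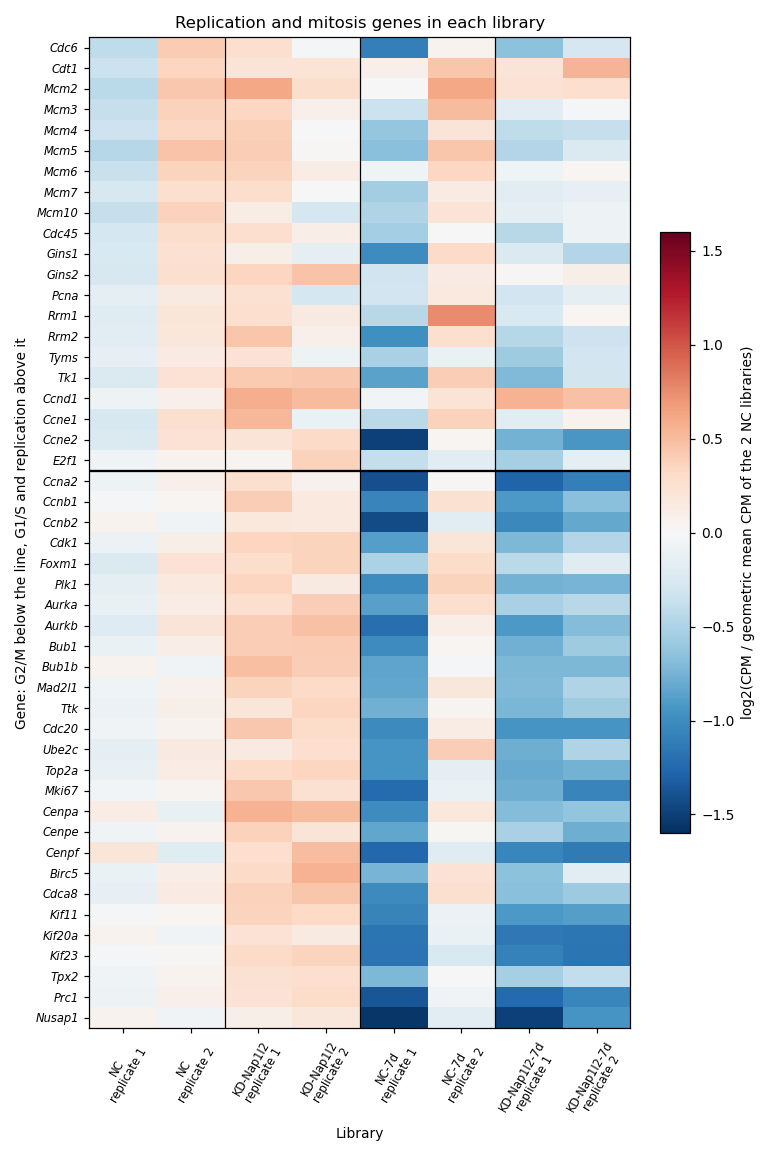
The colour gives each gene's log2 ratio of CPM to the geometric mean of the 2 NC libraries, with 1 row per gene and 1 column per library. The G2/M rows below the black line are blue in NC-7d replicate 1 and in both KD-Nap1l2-7d libraries, and near white in NC-7d replicate 2.

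The 2 NC-7d libraries differed from each other in these genes more than any other pair of replicates, and this bears on every comparison that uses them. All 48 genes were higher in NC-7d replicate 2 than in replicate 1, with a median log2 difference of 1.03, while over all 13470 tested genes the median was -0.01. The 27 G2/M genes differed by a median of 1.07, with a range from 0.71 to 1.42, and the 21 G1/S genes by 0.70. Together the 48 genes summed to 2431 CPM in NC-7d replicate 1 and to 4278 CPM in replicate 2, against 3569 and 4233 CPM in NC, 4952 and 4641 CPM in KD-Nap1l2 and 2960 and 3109 CPM in KD-Nap1l2-7d. Thus one NC-7d library lay with the uninduced libraries for these genes and the other lay below the induced KD-Nap1l2-7d libraries. NC-7d replicate 1 was the lowest of the 8 libraries for 41 of the 48 genes, among them all 27 G2/M genes.

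Other genes that respond to induction did not move alike. *Spp1*, the bone matrix protein osteopontin, had 5316 CPM in NC-7d replicate 1 but 2026 CPM in replicate 2, against 1673 and 1537 CPM in NC and 4474 and 4305 CPM in KD-Nap1l2-7d. *Fabp4*, an adipocyte lipid carrier, had 103 and 82.6 CPM in NC-7d and 6.26 and 4.66 CPM in NC, so both NC-7d libraries were far above the uninduced ones. It does not stand for adipocyte genes as a set. Of 6 adipocyte markers tested, 2 rose and 0 fell in control cells at an adjusted p under 0.05 from edgeR. There 4.83% of all tested genes rose and 3.38% fell. In cells labelled KD-Nap1l2, 2 rose and 2 fell, where 6.84% of all tested genes rose and 7.36% fell. The 2 that fell were *Cebpa* (log2 fold change -2.40) and *Lpl* (-1.54). Across the 13470 tested genes, the log2 CPM of NC-7d replicate 2 correlated with those of the other induced libraries at 0.972 to 0.977 and with those of the uninduced libraries at 0.939 to 0.956. Genes are not independent replicates, and these coefficients only describe the libraries. Their part in the results on cell cycle genes was not tested, and results that rest on NC-7d are given with and without each of its libraries.

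Replicates also differed by class. In NC, all 21 G1/S genes were higher in replicate 2, by a median of 0.51 on the log2 scale, while the G2/M genes differed by a median of 0.13. In KD-Nap1l2, the corresponding medians were -0.25 and 0.01. The ratio of the summed CPM of G2/M genes to that of G1/S genes, leaving out *Ccnd1* because of its abundance, was 2.04 and 1.56 in NC, 1.78 and 2.08 in KD-Nap1l2, 1.19 and 1.43 in NC-7d, and 1.22 and 1.14 in KD-Nap1l2-7d. All 4 induced libraries thus had a lower ratio than all 4 uninduced libraries.

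**Figure D2:**
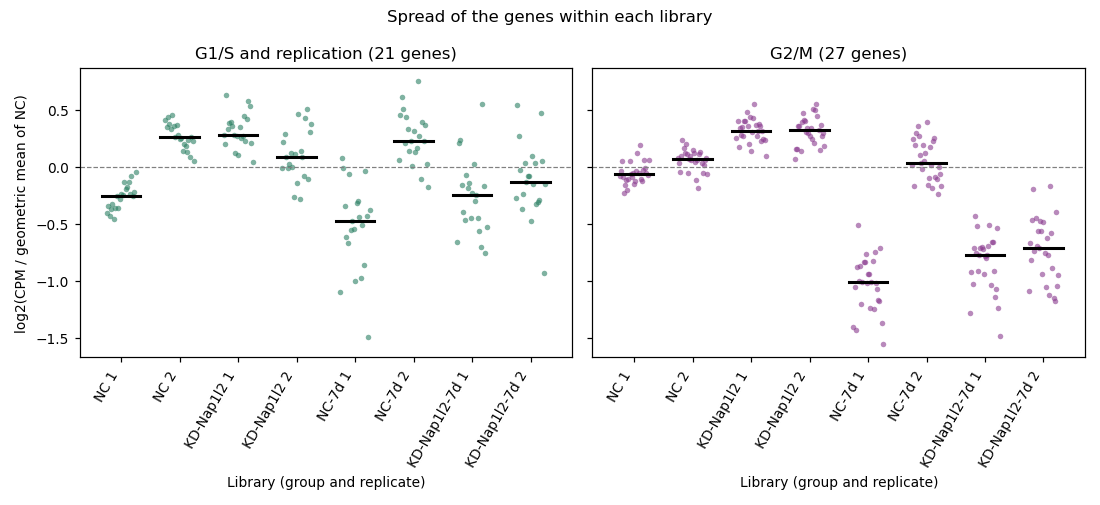
Each point is 1 gene in 1 library, as the log2 ratio of its CPM to the geometric mean of NC, and black bars are medians over the 21 G1/S and replication genes (left) and the 27 G2/M genes (right). The G2/M median was -1.01 in NC-7d replicate 1, 0.04 in NC-7d replicate 2, and -0.78 and -0.71 in the KD-Nap1l2-7d libraries.

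Mitotic mRNAs fell over the 7 days of induction in the cells labelled KD-Nap1l2, and time in culture was not tested apart from induction. Between KD-Nap1l2-7d and KD-Nap1l2, 13 of the 48 genes fell and 0 rose at an adjusted p under 0.05 (edgeR, quasi-likelihood test, p-values adjusted by Benjamini-Hochberg over all 13470 genes), where 7.36% of all tested genes fell and 6.84% rose. All 13 were G2/M genes, of which there are 27, and 0 of the 21 G1/S genes passed, although 4 of those had an unadjusted p under 0.05. Over both classes 30 genes had such a p and were lower, as were 16.1% of all tested genes. The median log2 fold change was -1.09 over the G2/M genes and -0.33 over the G1/S genes, against -0.01 over all tested genes. It was below 0 in 47 of the 48 genes and in 50.6% of all tested genes. In 43 of the 48 genes both induced libraries lay below both uninduced libraries, which held for 30.6% of all tested genes in this direction. Marker genes of the cells moved in the same comparison. Of the 12 mesenchymal markers 7 fell and 0 rose, with a median log2 fold change of -0.79, and their sum was 21096 and 29185 CPM in KD-Nap1l2 and 11998 and 13988 CPM in KD-Nap1l2-7d. Of the 9 osteoblast markers tested, *Col1a1*, *Dlx5* and *Runx2* fell and *Spp1* rose. In control cells 2 of the 12 mesenchymal markers fell, with a median of -0.53, where 3.38% of all tested genes fell. The part of these changes in the values of the cell cycle genes was not tested.

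The spindle motors and the proteins of cytokinesis gave 4 of the 13 genes. *Kif23*, the motor of the central spindle, had 59.0 and 61.2 CPM in KD-Nap1l2 and 22.6 and 21.1 CPM in KD-Nap1l2-7d. It fell by 1.46 on the log2 scale (standard error 0.26, adjusted p = 0.0122 from edgeR), the lowest adjusted p of the list, and the replicates within a group lay close together. *Prc1*, which bundles the microtubules of the midzone, went from 154 and 161 CPM to 55.5 and 63.7 CPM, a fall by 1.40 (adjusted p = 0.0370 from edgeR). *Kif20a*, another midzone motor, had 138 and 131 CPM before and 53.5 and 53.2 CPM after induction (log2 fold change -1.34, adjusted p = 0.0232 from edgeR). The bipolar spindle motor *Kif11* dropped from 92.3 and 89.8 CPM to 38.1 and 39.0 CPM (log2 fold change -1.24, adjusted p = 0.0231 from edgeR). The same direction, without passing the test, was measured for *Nusap1*, with 85.8 and 91.1 CPM before and 28.7 and 41.8 CPM after induction (log2 fold change -1.33, adjusted p = 0.0584 from edgeR), and for *Tpx2*, an activator of Aurora A (log2 fold change -0.72, adjusted p = 0.0605 from edgeR).

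Chromosome and kinetochore genes gave 5 more. *Cenpf*, a large kinetochore protein, showed the widest fall of the list, from 72.7 and 84.9 CPM to 29.3 and 27.5 CPM (log2 fold change -1.47, standard error 0.31, adjusted p = 0.0213 from edgeR). *Mki67*, the Ki-67 proliferation marker that coats mitotic chromosomes, had 448 and 395 CPM in KD-Nap1l2 and 195 and 160 CPM in KD-Nap1l2-7d, a fall by 1.25 (adjusted p = 0.0395 from edgeR). *Top2a*, which untangles sister chromatids, had 371 and 380 CPM before and 172 and 178 CPM after induction, a fall by 1.10 (adjusted p = 0.0226 from edgeR). In each of these 3 genes both induced libraries lay far below both uninduced ones. *Cenpa*, the histone H3 variant of centromeres, fell by 1.19 (adjusted p = 0.0474 from edgeR) and the kinetochore motor *Cenpe* by 0.93 (adjusted p = 0.0455 from edgeR). *Birc5* (survivin) and *Cdca8* (borealin), of the chromosomal passenger complex, had log2 fold changes of -0.83 and -1.03 and did not pass.

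The spindle checkpoint, which delays anaphase until every kinetochore is attached, and its target gave the other 4. *Cdc20*, the activator of the anaphase-promoting complex that the checkpoint holds back, had 52.4 and 47.7 CPM in KD-Nap1l2 and 20.2 and 20.1 CPM in KD-Nap1l2-7d, a fall by 1.31 (adjusted p = 0.0313 from edgeR). The checkpoint kinases *Bub1b* (BubR1), *Bub1* and *Ttk* (Mps1) fell by 1.15, 1.07 and 0.91 on the log2 scale, with adjusted p-values of 0.0193, 0.0490 and 0.0453 from edgeR. *Mad2l1* and *Ube2c* had log2 fold changes of -0.92 and -0.83, with adjusted p-values of 0.0677 and 0.167 from edgeR.

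The engine of mitosis itself was lower by a like amount but did not pass. *Ccna2*, cyclin A2, had 111 and 97.5 CPM before and 38.3 and 43.7 CPM after induction of the KD-Nap1l2 cells (log2 fold change -1.34, adjusted p = 0.0526 from edgeR). *Ccnb1*, cyclin B1, had 72.7 and 61.3 CPM and then 29.2 and 34.8 CPM (log2 fold change -1.07, adjusted p = 0.0816 from edgeR). Its kinase *Cdk1* had 103 and 105 CPM and then 49.8 and 59.3 CPM (log2 fold change -0.93, adjusted p = 0.0744 from edgeR). In all 3, both induced libraries lay below both uninduced ones. The mitotic kinase *Plk1* had 55.3 and 47.9 CPM before and 25.8 and 26.0 CPM after induction (log2 fold change -0.99, adjusted p = 0.110 from edgeR). *Aurkb*, the kinase of the passenger complex, had 53.0 and 55.7 CPM and then 21.3 and 24.8 CPM (log2 fold change -1.24, adjusted p = 0.0590 from edgeR). *Foxm1*, a transcription factor of the mitotic wave, had the smallest difference of the G2/M genes, with 89.9 and 94.6 CPM before and 54.8 and 64.6 CPM after induction (log2 fold change -0.63, adjusted p = 0.149 from edgeR).

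Replication genes differed less in this comparison. *Mcm5*, of the replicative helicase, had 70.6 and 54.5 CPM in KD-Nap1l2 and 38.8 and 45.6 CPM in KD-Nap1l2-7d (log2 fold change -0.57, adjusted p = 0.356 from edgeR). The sliding clamp *Pcna* had 185 and 128 CPM and then 126 and 141 CPM, so its groups overlapped (log2 fold change -0.23). The origin licensing factor *Cdc6* had 22.6 and 18.5 CPM and then 11.9 and 15.5 CPM (log2 fold change -0.59). Its partner *Cdt1* was the only one of the 48 genes with a log2 fold change above 0, at 0.18, with 28.5 and 28.8 CPM before and 28.7 and 36.1 CPM after induction. The next in order were *Ccnd1* at -0.03 and the fork factor *Mcm10* at -0.05, which had 22.6 and 17.2 CPM and then 18.8 and 19.6 CPM.

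The 4 genes of nucleotide supply, which belong to the G1/S class, had log2 fold changes from -0.91 to -0.30, with *Rrm1* the nearest to 0 and *Tyms*, thymidylate synthase, at -0.51, and 0 of them passed. *Tk1*, thymidine kinase, had 58.1 and 58.5 CPM in KD-Nap1l2 and 26.6 and 35.5 CPM in KD-Nap1l2-7d (log2 fold change -0.91, adjusted p = 0.135 from edgeR). *Rrm2*, the regulated subunit of ribonucleotide reductase, had 118 and 92.4 CPM and then 63.6 and 69.4 CPM (log2 fold change -0.66, adjusted p = 0.238 from edgeR). The cyclins E, partners of CDK2 at the G1/S border, did not behave alike in size. *Ccne2* had 36.8 and 39.5 CPM before and 18.8 and 16.8 CPM after induction (log2 fold change -1.10, standard error 0.41, adjusted p = 0.113 from edgeR), whereas *Ccne1* had 20.8 and 13.3 CPM and then 12.8 and 14.9 CPM, with groups that overlapped (log2 fold change -0.30). *E2f1*, the transcription factor of this wave, had 59.6 and 74.8 CPM and then 40.2 and 52.1 CPM (log2 fold change -0.54, standard error 0.17, adjusted p = 0.0721 from edgeR), the lowest adjusted p of the G1/S class.

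The number of genes that fell in KD-Nap1l2-7d moved with every library left out of the fit, and in most of these fits so did the share of all genes that fell. Leaving out NC replicate 1 or 2 gave 6 genes each (5.03% and 5% of all genes fell in these fits), and leaving out NC-7d replicate 1 or 2 gave 29 each (8.48% and 8.4%). The count was 6 without KD-Nap1l2 replicate 1 (8.58%) and 1 when its replicate 2 was omitted (4.02%). It was 0 when KD-Nap1l2-7d replicate 1 or 2 was omitted (0.663% and 0.866%), so that few genes of any kind passed there. The median log2 fold change of the 48 genes stayed between -0.995 and -0.745, beside -0.87 with all libraries.

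**Figure D3:**
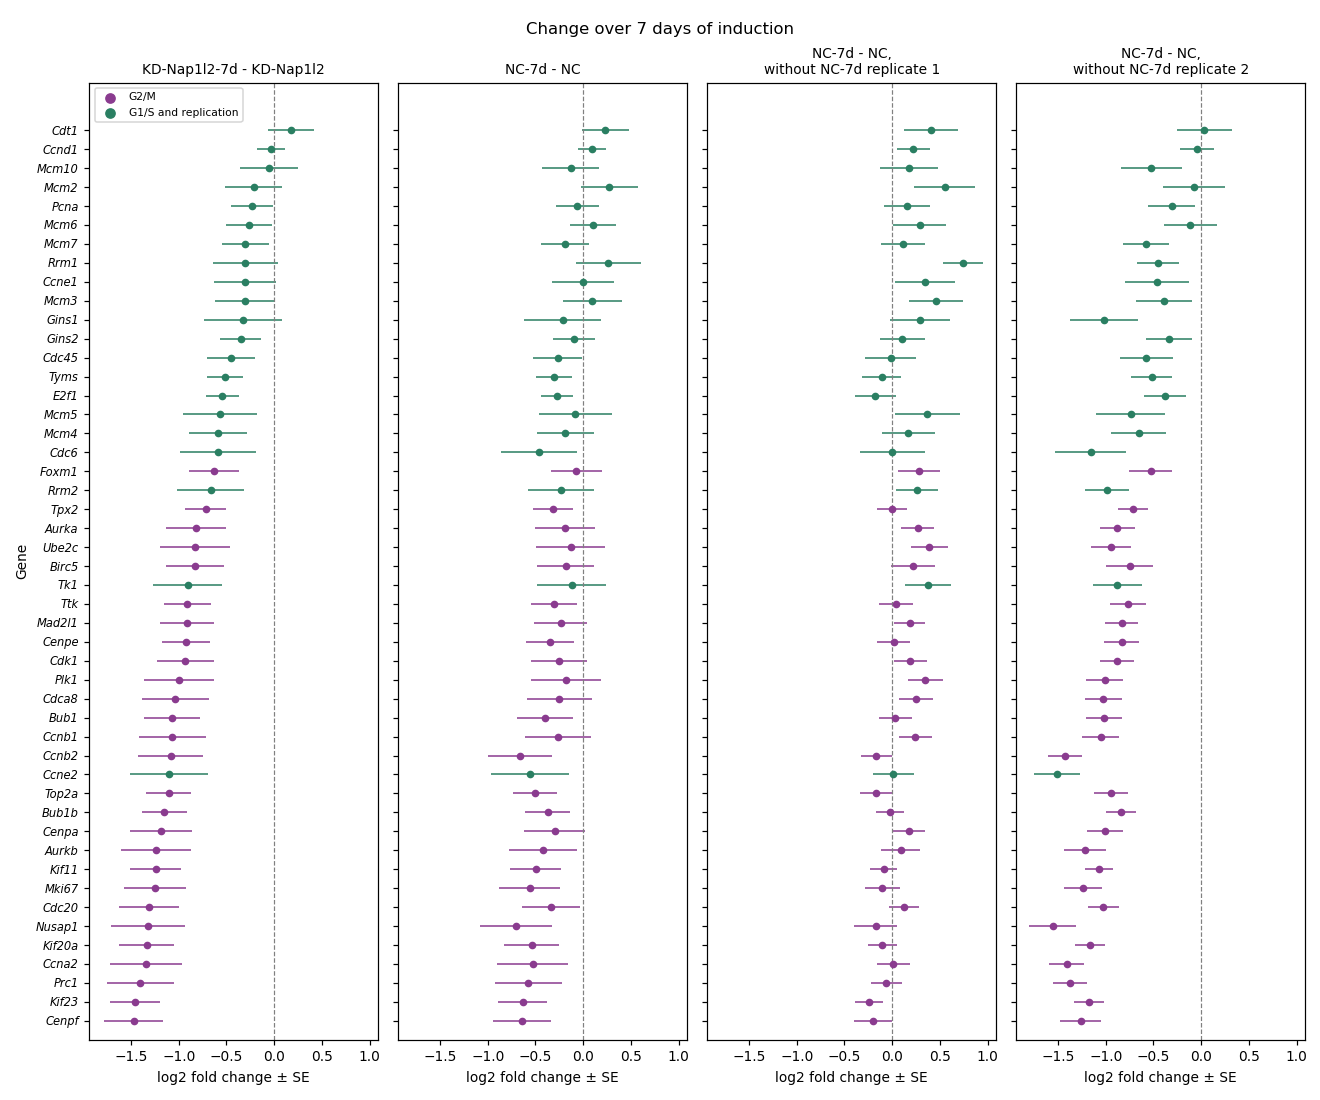
Points are log2 fold changes over 7 days of induction with their standard errors, for the cells labelled KD-Nap1l2 (first panel) and for the control cells with both NC-7d libraries, without replicate 1 and without replicate 2 (the other panels, in this order), with G2/M genes in purple and G1/S genes in green. The median of the 48 genes is -0.87, -0.26, 0.14 and -0.88 from left to right.

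In the control cells, the result of induction differed between the 2 NC-7d libraries. With both, 0 of the 48 genes passed edgeR's test between NC-7d and NC, where 3.38% of all tested genes fell and 8.21% passed in either direction. Only *Kif23* had an unadjusted p under 0.05 and was lower, as were 11.6% of all tested genes. DESeq2 and limma also called 0, while they called 11.5% and 7.56% of all tested genes in either direction. The median log2 fold change was -0.26, with 42 of 48 genes below 0 (50.3% of all tested genes), and 9 genes had both induced libraries below both uninduced ones, which held for 28.4% of all tested genes in this direction. Without NC-7d replicate 2, the median of the 48 genes was -0.88, with -1.02 for the G2/M genes and -0.52 for the G1/S genes. Without NC-7d replicate 1, these medians were 0.14, 0.03 and 0.22. A fit that leaves 1 library in a group assumes that this library varies like the others.

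The largest falls in value were those of *Nusap1*, *Ccnb2* and *Cenpf*, and none passed with both libraries. *Nusap1*, a spindle protein, had 84.1 and 77.2 CPM in NC, 27.4 CPM in NC-7d replicate 1 and 71.5 CPM in NC-7d replicate 2 (log2 fold change -0.70, standard error 0.38, adjusted p = 0.303 from edgeR). *Ccnb2*, cyclin B2, had 40.6 and 37.9 CPM in NC and then 14.5 and 35.0 CPM (log2 fold change -0.66). *Cenpf* had 68.7 and 52.8 CPM and then 25.3 and 52.8 CPM (log2 fold change -0.64). In each, replicate 1 was far below NC and replicate 2 close to it. Without NC-7d replicate 2 these 3 genes fell by 1.56, 1.43 and 1.26 on the log2 scale (adjusted p = 0.0147, 0.00615 and 0.0189 from edgeR), and the first of these values was the widest of the 48.

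The other well-known genes of mitosis had the same layout in the control cells. *Mki67* had 323 and 343 CPM in NC and 141 and 310 CPM in NC-7d, and *Top2a* had 276 and 327 CPM and then 156 and 269 CPM. *Cdc20* had 37.3 and 40.3 CPM before and 19.1 and 42.2 CPM after induction. *Kif11* had 70.5 and 73.7 CPM and then 34.3 and 67.7 CPM. For all 4 genes NC-7d replicate 1 was below both KD-Nap1l2-7d libraries and replicate 2 was well above them. The cyclin genes *Ccna2* (88.1 and 98.2 CPM, then 35.0 and 93.9 CPM) and *Ccnb1* (53.9 and 56.6 CPM, then 26.6 and 65.4 CPM), and the kinase genes *Cdk1* (76.6 and 87.4 CPM, then 44.5 and 93.3 CPM), *Plk1* (38.9 and 48.5 CPM, then 21.6 and 55.5 CPM) and *Aurkb* (35.0 and 46.2 CPM, then 17.4 and 43.2 CPM), split in the same way. *Foxm1* had 63.0 and 87.2 CPM in NC and 52.0 and 91.0 CPM in NC-7d.

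Among replication genes in the control cells, the 3 highest log2 fold changes were 0.27 for the helicase gene *Mcm2*, 0.26 for *Rrm1*, the large subunit of ribonucleotide reductase, and 0.23 for *Cdt1*, and none was past its spread. *Mcm2* had 42.0 and 76.6 CPM in NC and 56.3 and 86.8 CPM in NC-7d. *Rrm1* had 153 and 201 CPM and then 129 and 296 CPM, and *Cdt1* had 19.5 and 31.6 CPM and then 26.2 and 33.9 CPM. Groups overlapped in all 3. *Mcm5* had 39.2 and 73.7 CPM in NC and 33.8 and 72.9 CPM in NC-7d, and *Cdc6* had 14.1 and 24.9 CPM and then 8.74 and 19.5 CPM. *Pcna* (142 and 172 CPM, then 126 and 174 CPM), *Rrm2* (76.6 and 98.8 CPM, then 44.2 and 105 CPM) and *Tk1* (36.9 and 51.1 CPM, then 23.9 and 57.1 CPM) had NC-7d replicate 1 below and replicate 2 above both NC values. *Ccne1* had 11.98 and 17.2 CPM in NC and 10.6 and 18.5 CPM in NC-7d. *E2f1*, with 55.8 and 59.9 CPM and then 44.5 and 51.1 CPM, was the only G1/S gene whose 2 groups did not overlap.

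The difference of the 2 induction responses asks whether the fall was larger in the cells labelled KD-Nap1l2, and it uses the same libraries as the comparisons above. Of the 48 genes, 0 passed edgeR's test of this difference, as did 0% of all tested genes. DESeq2 and limma also called 0 of them, beside 0.757% and 0% of all tested genes. The difference was below 0 in 47 genes (52.2% of all tested genes), with a median of -0.59 (-0.02 over all), and the widest were those of *Cdc20* (-0.97, adjusted p = 0.703 from edgeR), *Cenpa* (-0.89) and *Cenpf* (-0.83). The only unadjusted p under 0.05 was that of *Bub1b* (-0.78), while 3.54% of all tested genes had one and were lower. Without NC-7d replicate 2, the median difference was -0.01, with 26 genes below 0. Without NC-7d replicate 1 it was -0.999, with 48 genes below 0. In the fit without NC-7d replicate 2, the overlap of the genes that fell in the 2 kinds of cells was not compared with all tested genes. Such an overlap is therefore no result about the list.

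**Figure D4:**
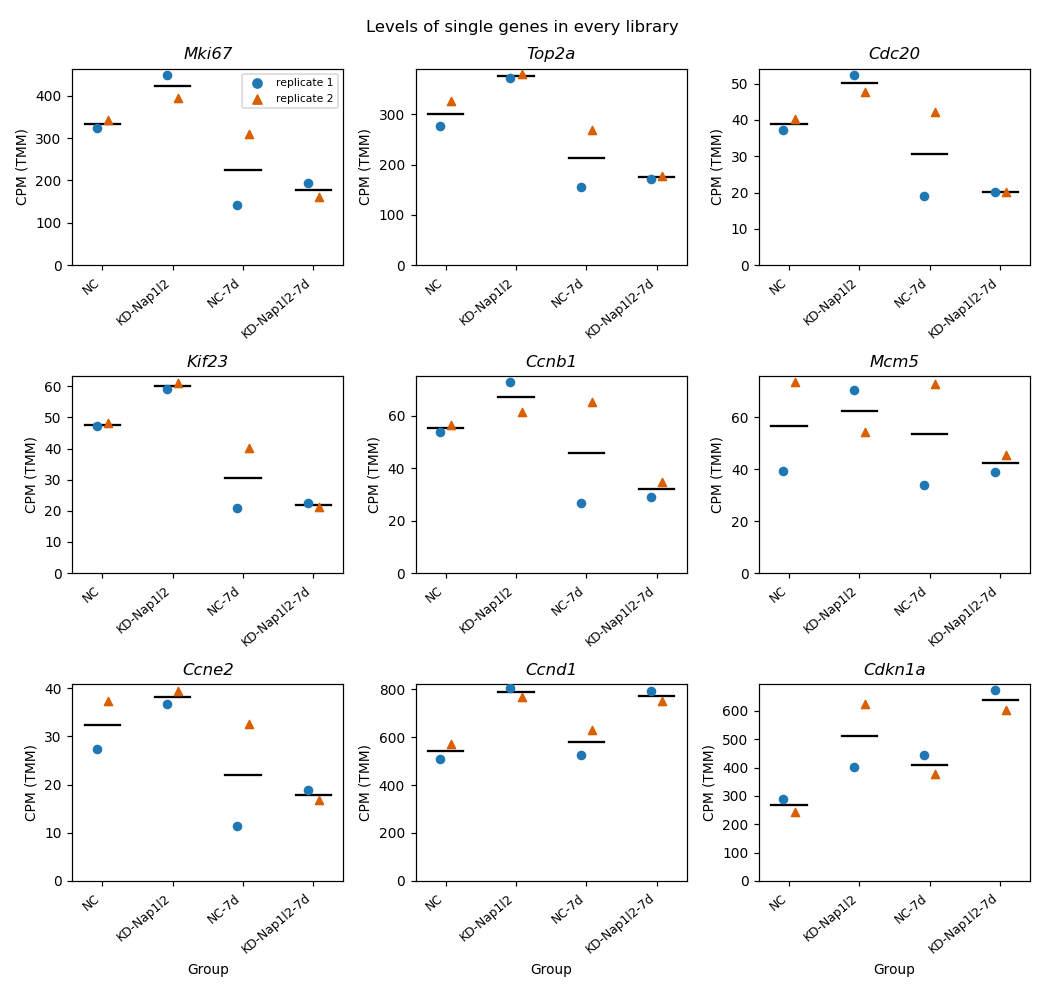
CPM of 8 of the genes and of *Cdkn1a* in every library, with circles for replicate 1, triangles for replicate 2, bars for the mean of 2 libraries and every axis starting at 0. The NC-7d symbols lie apart in all panels but those of *Ccnd1* and *Cdkn1a*, and *Ccnd1* is higher in both groups labelled KD than in their controls.

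Before induction, the libraries labelled KD-Nap1l2 had slightly more of these mRNAs than NC. The log2 fold change was above 0 in 46 of 48 genes, with a median of 0.26, against 51.5% of all tested genes and a median of 0.01. The 2 NC libraries differed from each other by a like amount. Replicate 2 of NC was higher than replicate 1 in 42 of the 48 genes, by a median of 0.25 on the log2 scale. No gene of the list passed edgeR's test, where 0.0817% of all tested genes did. Only *Ccnd1* had an unadjusted p under 0.05, as did 13.7% of all tested genes. From limma 0 of the 48 genes were called, beside 0.245% of all tested genes. DESeq2 called *Ccnd1*, 1 of 48 genes, while it called 3.55% of all tested genes. In 27 genes both KD-Nap1l2 libraries were above both NC libraries, which held for 22% of all tested genes in this direction, and 24 of these were G2/M genes. By class, the median was 0.32 for G2/M and 0.17 for G1/S genes. The G2/M median stayed between 0.24 and 0.38 with each library left out in turn, while the G1/S median ran from -0.09 without NC replicate 1 to 0.51 without NC replicate 2.

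The widest differences of mitotic genes at this time were small. *Cenpa* had 24.9 and 21.2 CPM in NC and 33.7 and 32.6 CPM in KD-Nap1l2 (log2 fold change 0.52, standard error 0.32, adjusted p = 0.523 from edgeR). *Bub1b* had 44.5 and 41.4 CPM and then 59.8 and 56.6 CPM (log2 fold change 0.44), and *Birc5* had 52.5 and 61.3 CPM and then 70.4 and 83.1 CPM (log2 fold change 0.43). In each, the 2 groups did not overlap. *Kif23*, with 47.2 and 48.1 CPM in NC and 59.0 and 61.2 CPM in KD-Nap1l2, had the same layout at a smaller distance.

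After 7 days, the sign of the knockdown comparison depended on which NC-7d library was used. Against NC-7d, 44 of 48 genes in KD-Nap1l2-7d had a log2 fold change below 0 (50.9% of all tested genes), with a median of -0.30, and 0 passed edgeR's test, as did 0% of all genes. DESeq2 and limma called 0 as well, beside 0.623% and 0% of all tested genes. *Ccnd1* alone had an unadjusted p under 0.05, as did 7.85% of all tested genes. The lowest values were those of *Ccna2* (-0.65), *Kif20a* (-0.61) and *Cdc20* (-0.61). Without NC-7d replicate 2 all 48 genes were above 0, with a median of 0.29, and without NC-7d replicate 1 the median was -0.70. Except for *Ccnd1*, no gene had 2 groups that did not overlap, which held for 42.1% of all tested genes in either direction.

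*Ccnd1* stood apart from the other 47 genes. It had 510 and 573 CPM in NC, 806 and 768 CPM in KD-Nap1l2, 526 and 630 CPM in NC-7d and 792 and 751 CPM in KD-Nap1l2-7d. All 4 libraries labelled KD were above all 4 control libraries, and the induction log2 fold changes of *Ccnd1* were 0.09 in control cells and -0.03 in cells labelled KD-Nap1l2. Of all tested genes, 22% had both libraries labelled KD above both controls before induction, and 21% did after 7 days. The log2 fold change of KD-Nap1l2 against NC was 0.54 (standard error 0.15, adjusted p = 0.175 from edgeR and 0.0246 from DESeq2) and that of KD-Nap1l2-7d against NC-7d was 0.42 (standard error 0.15, adjusted p = 0.552 from edgeR). With each library left out in turn, the first ran from 0.46 to 0.62 and the second from 0.29 to 0.55.

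Genes of the same pathways outside the 48 were counted from further lists. Of 74 other mitosis genes, 31 fell and 1 rose between KD-Nap1l2-7d and KD-Nap1l2, with a median log2 fold change of -0.89, where 7.36% of all tested genes fell and 6.84% rose. The kinetochore gene *Cenpk* had the widest fall, from 15.6 and 12.8 CPM to 4.34 and 4.86 CPM (log2 fold change -1.62, adjusted p = 0.0189 from edgeR). The spindle pole gene *Aspm* fell from 39.2 and 33.5 CPM to 13.5 and 12.1 CPM (log2 fold change -1.51, adjusted p = 0.0138 from edgeR), and *Cdkn3*, a phosphatase of CDKs, from 15.5 and 14.9 CPM to 5.33 and 5.66 CPM (log2 fold change -1.47, adjusted p = 0.0418 from edgeR). *Zwint*, which links kinetochore complexes, was the one that rose, from 166 and 168 CPM to 230 and 247 CPM (log2 fold change 0.51, adjusted p = 0.0418 from edgeR). Of 50 other replication genes, 4 fell and 0 rose, with a median of -0.49. This share is close to the 7.36% of all tested genes that fell and is no result about the list. The 4 genes were *Pole2*, a subunit of DNA polymerase epsilon (-0.88, adjusted p = 0.0367 from edgeR), *Tipin* (-0.59), *Slbp* (-0.57) and *Dut* (-0.57). In the control cells, 0 of the 74 mitosis genes passed, with 8 at an unadjusted p under 0.05 and lower, which is below the 11.6% of all tested genes. Of the replication genes 1 rose, where 4.83% of all tested genes did. It was *Rnaseh2a*, a subunit of ribonuclease H2 (log2 fold change 0.79, adjusted p = 0.0310 from edgeR). Before induction, 71 of the 74 mitosis genes had a log2 fold change above 0 in KD-Nap1l2 (51.5% of all tested genes), with a median of 0.30 and 0 past the test, and after 7 days 67 of the 74 were below 0 in KD-Nap1l2-7d (50.9% of all tested genes), with a median of -0.28 and 0 past the test.

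The 15 subunits of the anaphase-promoting complex, which is regulated mostly by its activators, had a median of -0.05 in the induction of the KD-Nap1l2 cells, and only *Anapc16* passed, higher by 0.77 (adjusted p = 0.0140 from edgeR). Of 30 G1 cyclins, CDKs and E2F regulators, 2 rose and 1 fell there. Neither list exceeded the shares of all tested genes, 6.84% higher and 7.36% lower, so these genes are given for their own values only. *Lin52*, of the MuvB core, rose from 9.28 and 8.27 CPM to 17.6 and 16.8 CPM (log2 fold change 0.97, adjusted p = 0.00854 from edgeR), *E2f4*, the E2F of the DREAM complex, rose from 41.7 and 43.9 CPM to 64.7 and 61.1 CPM (log2 fold change 0.56, adjusted p = 0.0164 from edgeR), and *Fbxo5*, an inhibitor of the anaphase-promoting complex, fell by 1.09 (adjusted p = 0.0399 from edgeR). In the control cells the log2 fold changes of *Lin52* and *E2f4* were 0.40 and 0.30, with adjusted p-values of 0.162 and 0.142 from edgeR, and both NC-7d libraries were above both NC libraries. *Lin52* was lower in KD-Nap1l2 than in NC before induction (log2 fold change -0.38, adjusted p = 0.341 from edgeR). The other MuvB genes *Lin9*, *Lin37*, *Lin54* and *Rbbp4* had log2 fold changes of -0.31, 0.13, 0.27 and -0.03 on induction of the cells labelled KD-Nap1l2. Those of the pocket protein genes *Rbl1* and *Rbl2* were -0.58 and 0.12, and none of these genes passed.

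Among the brakes of the cycle, *Cdkn1a*, which encodes p21, had 288 and 245 CPM in NC, 401 and 623 CPM in KD-Nap1l2, 443 and 376 CPM in NC-7d and 673 and 604 CPM in KD-Nap1l2-7d. Its induction log2 fold changes were 0.62 in control cells and 0.32 in cells labelled KD-Nap1l2 (adjusted p = 0.133 and 0.360 from edgeR), and its 2 NC-7d libraries were near each other. *Cdkn1a* was higher in KD-Nap1l2 than in NC by 0.94 on the log2 scale (adjusted p = 0.140 from edgeR). It was higher in KD-Nap1l2-7d than in NC-7d by 0.64 (adjusted p = 0.544 from edgeR), and neither comparison passed. *Cdkn2c*, which encodes p18 and is itself known as an E2F-responsive gene, fell from 60.4 and 54.5 CPM to 25.9 and 31.9 CPM in the cells labelled KD-Nap1l2 (log2 fold change -0.99, adjusted p = 0.00493 from edgeR), and *Cdkn2d*, which encodes p19, fell by 1.07 (adjusted p = 0.0359). *Cdkn1b*, which encodes p27, had 131 and 125 CPM in NC, 95.3 and 141 CPM in KD-Nap1l2, 131 and 142 CPM in NC-7d and 89.5 and 114 CPM in KD-Nap1l2-7d, with no comparison past the test. Of the pocket protein genes, *Rb1* had 41.0 and 35.9 CPM in NC and 54.8 and 63.2 CPM in KD-Nap1l2 (log2 fold change 0.62, adjusted p = 0.131 from edgeR), and *Rbl1*, itself an S phase gene, had 41.1 and 28.7 CPM in KD-Nap1l2 and 22.6 and 24.0 CPM in KD-Nap1l2-7d (log2 fold change -0.58, adjusted p = 0.160 from edgeR).

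At the level of transcripts, the 48 genes had 122 listed transcripts, and 19 genes had a single one. Of the 29 genes with more than 1 transcript above 0, 22 had the same leading transcript in all 8 libraries. *Ccna2*, *Birc5* and *Aurka* each had a leading transcript with a mean share of 97.6%, 93.9% and 92.9% of the gene's summed FPKM. For *Cenpf*, *Prc1*, *Bub1*, *Cenpa*, *Cdc45*, *E2f1* and *Mki67* the leading transcript changed between libraries, and in *Cenpf* the share of the most abundant one ran from 19.1% to 73.4%. These splits are estimates from reads that several transcripts share.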

How the data were processed

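RNA-seq of 8 libraries was analysed. Per the submitters' processing notes, BWA, Bowtie2 and RSEM were used with the build GRCm38.p6, and versions and the role of each tool are not given in the sources used here. The authors deposited estimated counts per gene, of which 41.1% of genes had a value that was not whole, and FPKM per gene and transcript, scaled by the authors to length and library total. Their comparison tables (log2 ratios, p-values and q-values) were not used.

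Counts were rounded to whole numbers, filtered with filterByExpr (13470 of 18605 genes kept), scaled by TMM, and a single quasi-likelihood model of the 4 groups was fitted in edgeR 4.0.16 (R 4.3.3), and p-values were adjusted by the Benjamini-Hochberg method over all tested genes. CPM values use TMM library sizes. The 5 comparisons share libraries. DESeq2 1.42.0, limma 3.58.1 on log2(FPKM + 1), other scalings and filters, a replicate block and leaving out each library were alternatives. The scripts were tested on simulated data. With 2 against 2 libraries an exact two-sided permutation test cannot go below 0.333, so none was used for single genes. No intervals are given, and the standard errors of the edgeR fit include the spread between libraries.

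All 48 genes could be named. Values in every library were given for the 3 largest rises and falls of each induction comparison and for 18 genes of known role, and in the further cell cycle lists log2 fold changes of the called genes with the largest changes. Genes and lists were chosen with earlier results of these data known. *Fabp4* and *Spp1* were named after their values were seen.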

Additional observations from a re-analysis of the deposited data

How the results depend on the processing

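On induction of the cells labelled KD-Nap1l2, the median log2 fold change of the 48 genes stayed below 0 under every alternative. The number of genes past the threshold varied. It was 13 in edgeR (7.36% of all genes fell), 26 in DESeq2 (9.45%), 20 without the filter on low counts (5.84%), 29 with only the libraries compared (7.33%) and 8 in limma on log2(FPKM + 1) (6.08%), and from 0 to 29 with each library left out. DESeq2 called 1 gene, *Ccnd1*, before induction, and 3.55% of all genes. The cause was not tested.

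With each library left out in turn, the median log2 fold change of the 48 genes ran from 0.18 to 0.41 for the knockdown before induction. It ran from -0.70 to 0.29 after 7 days and from -0.88 to 0.14 for induction in control cells. For the difference of the responses it ran from -0.999 to -0.0083. By class, G1/S medians ran from -0.089 to 0.51, -0.39 to 0.34, -0.52 to 0.22 and -0.59 to 0.13 in these 4 comparisons, and G2/M medians from -0.81 to 0.25 after 7 days and from -1.02 to 0.032 for induction in control cells. Signs turned for *Ccna2* (-1.20 to 0.23), *Kif20a* (-1.04 to 0.021) and *Cdc20* (-1.07 to 0.083) after 7 days, for *Mcm2* (-0.10 to 0.77), *Rrm1* (-0.46 to 0.74) and *Cdt1* (-0.074 to 0.63) on induction of control cells, and for *Ccne1* (-0.59 to 0.052), *Pcna* (-0.47 to 0.054), *Ccnd1* (-0.066 to 0.0069) and *Cdt1* (-0.0050 to 0.33) on induction of the cells labelled KD-Nap1l2.

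Over all 13470 tested genes, libraries with the same replicate number did not deviate together (correlations from -0.05 to 0.11). Among the 48 genes, replicate 2 was higher in 42 genes in NC, 48 in NC-7d and 39 in KD-Nap1l2-7d, but in 20 in KD-Nap1l2. Whether libraries with the same number share more than the number was not tested for these genes. With a replicate block, 16 genes fell on induction of the cells labelled KD-Nap1l2 (6.83% of all genes) and 0 passed in the other comparisons. A fit with only the libraries compared could not be made for the difference. With 2 libraries per group, small changes were not detectable.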
